A study of Mus musculus with 4 samples.

Results

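The genes described here are those of the interferon response and of nucleic acid sensing, 63 of the 14884 genes named on the arrays. They were chosen by symbol: the IFI, IFIT, IFITM, IFN, IRF, STAT, JAK, OAS, GBP, MX, TLR and HERC families within set number ranges, with TYK2, RIGI, IFIH1, DHX58, MAVS, CGAS, STING1, TBK1, ZBP1, SAMHD1, ISG15, ISG20, RSAD2, USP18, BST2 and XAF1. Each of the 63 has a single named probe set. Expression was measured in SW620, a line of human colon carcinoma cells grown in RPMI with serum, on GeneChip arrays hybridised with biotin-labelled cDNA from total RNA. Untreated cells (control, 2 arrays) were compared with cells given 50 nM the compound F5446, an inhibitor of the histone methyltransferase SUV39H1, for 2 days (F5446, 2 arrays). The series calls the 2 arrays of a group biological replicates without naming separate cultures. The p-values therefore reflect only how far these arrays differ, which may be technical. Both groups come from this 1 cell line.

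Cells detect foreign or misplaced nucleic acid with sensors of several kinds. RIG-I and MDA5 bind double-stranded RNA in the cytosol and signal through the mitochondrial adaptor MAVS, cGAS binds DNA and signals through STING, and Toll-like receptors read nucleic acid and microbial products at membranes. These routes meet at the kinase TBK1 and the factors IRF3 and IRF7, which switch on interferon genes. Secreted interferon binds its receptors and activates the JAK kinases and STAT factors, which together with IRF9 induce the effectors of the antiviral state. SUV39H1 trimethylates a lysine of histone H3 in heterochromatin, which helps to keep repeat elements silent, and transcripts of such elements are among the ligands that these sensors can bind.

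The RNA of SUV39H1 itself had a log2 signal of 9.12 and 9.17 in the controls and 7.47 and 7.36 after F5446, a fall of 3.32-fold. For its dimmer probe set the log2 fold change was -1.19. SUV39H2, its close relative, fell 2.12-fold, and 22.7% of all genes fell. F5446 inhibits the enzyme, and neither enzyme activity nor histone methylation was measured here. These RNA values are therefore no check that the compound acted. Across all named genes, which are no replicates of each other, the arrays of a group correlated at 0.994 and 0.995, and arrays of different groups at 0.943 to 0.945. The label of the cells was checked against markers. Of 12 measured markers of colonic epithelium, 11 had a mean signal above the limit for dim genes (4.43, the median of the means of all probe sets), and their summed linear signal was 9612 and 9508 in the controls and 4920 and 4956 after F5446. LGR5 fell 23.9-fold, VIL1 14.7-fold and KRT18 2.16-fold, while CEACAM5 rose 3.80-fold and KRT19 1.40-fold. Of 10 measured markers of leukocytes and plasmacytoid dendritic cells, 6 were dim, and the sum was 914 and 889 against 306 and 320. The fall of that sum lay in PRF1 (6.08-fold) and LYZ (3.45-fold); CD14, CSF1R and CD163 were dim. Of 6 measured fibroblast and endothelial markers, 4 were dim, the sum was 202 and 195 against 90 and 95, and LUM fell 8.12-fold. The part of these marker changes in the results below was not tested.

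After F5446, the interferon and nucleic acid sensing genes moved in both directions. The calls among receptors, JAK kinases and STAT factors were rises. Those among the cytosolic sensing genes and SAMHD1, and most of those among effectors, were falls. Of the 63 genes, 11 rose, 14 fell and 38 did not pass at an adjusted p under 0.05 in limma's test. The share called, 39.7%, lay near the 40.9% (18.2% higher and 22.7% lower) of all named genes. The median log2 fold change was -0.05 for the 63 and -0.05 for all genes. A change of at least 2-fold among those that passed was reached by 8 of the 63 (3 higher, 5 lower), where 12.7% of all genes did so. In 42 of the 63 both treated arrays lay beyond both control arrays on the same side, where 66.2% of all genes showed this. The 14 falls became 9 without control replicate 1 and 8 without F5446 replicate 1, and 8 with all probe sets tested. In bulk RNA such as this, fewer cells that express a gene and less RNA per cell cannot be told apart.

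**Figure D1:**
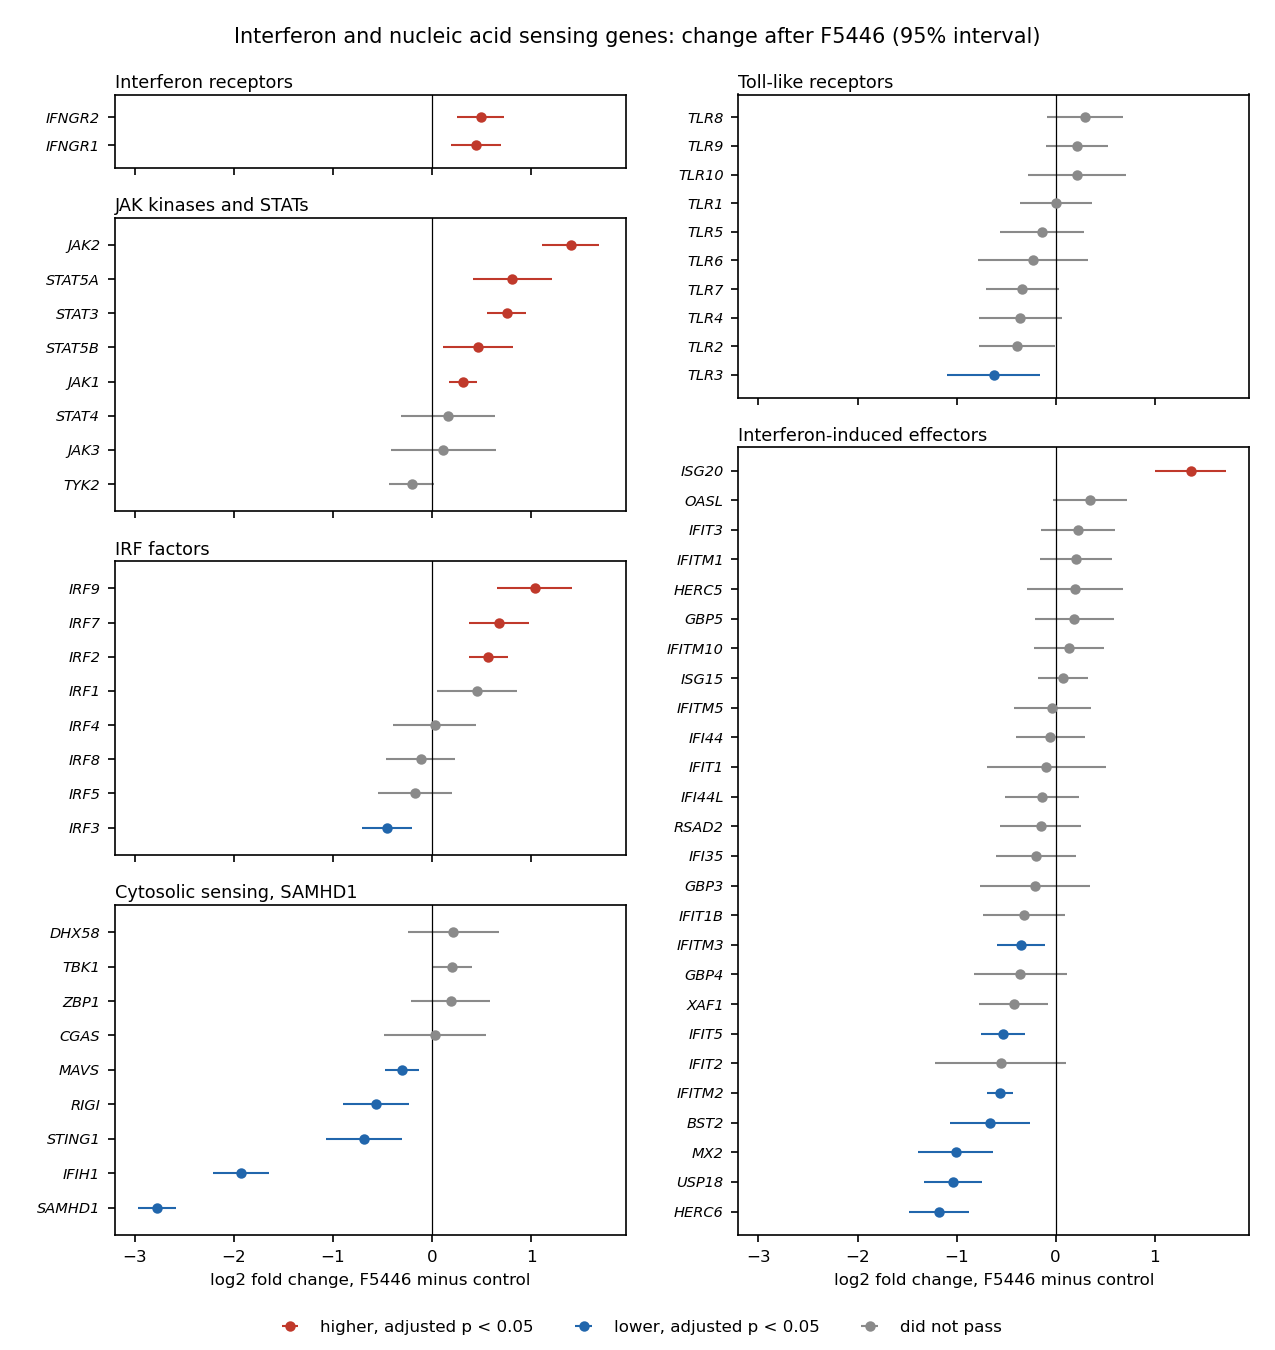
Change of each of the 63 genes after F5446, ordered by role. The x axis is the log2 fold change (F5446 minus control, 2 arrays each), points are estimates and bars 95% intervals from limma; red and blue mark genes higher or lower at an adjusted p under 0.05. The 5 JAK and STAT genes that passed lie to the right of 0. The 5 genes that passed in the group of cytosolic sensing genes and SAMHD1 lie to its left, down to -2.77 for SAMHD1.

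Most calls lay among genes with a signal above the limit for dim genes. Of the 63, 26 were dim, and 2 of these passed (8.12% of all dim genes did). Of the other 37, 23 passed, 11 higher and 12 lower, where 55.7% of all genes above the limit passed (25.2% higher and 30.6% lower). The dim genes include IFIT1, IFIT2, IFI44, IFI44L, RSAD2, HERC5, GBP4 and GBP5, which interferon strongly induces in many cells, and the DNA sensor gene CGAS. A fall of a dim gene may be understated by the array's background. Many central genes, among them STAT2, MX1, OAS1, IFNAR1, IFNAR2, IFI27 and all interferon ligands, could not be matched to a named probe set and were not analysed here, so the interferons themselves are not part of these values.

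**Figure D2:**
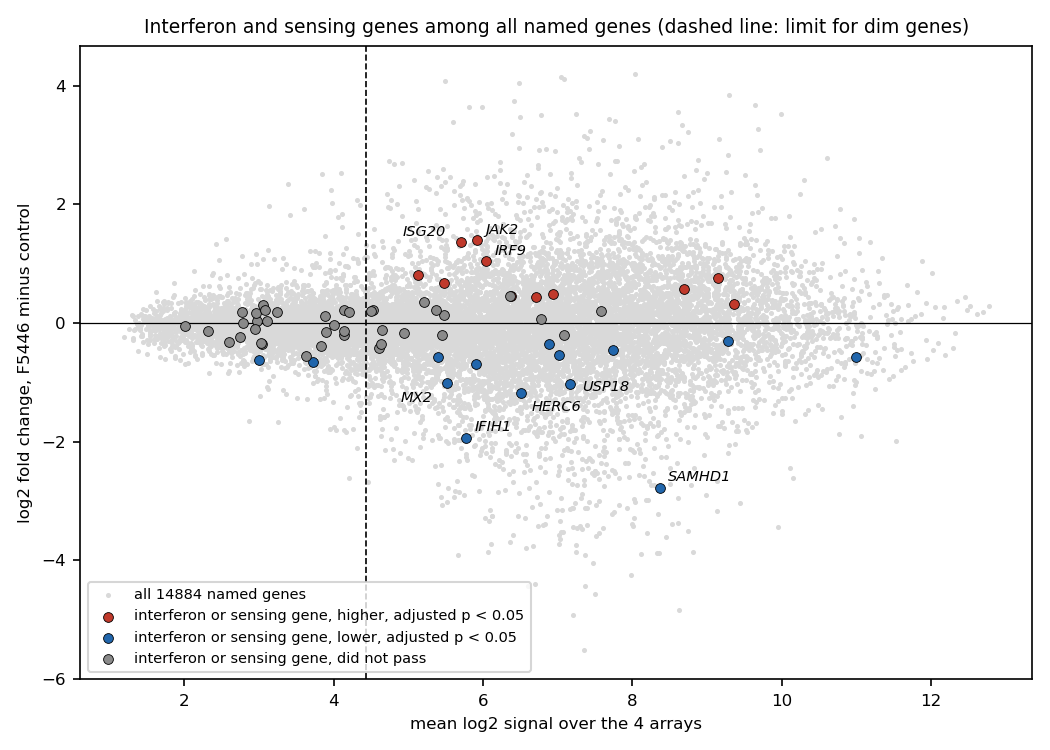
Mean log2 signal over the 4 arrays (x axis) against log2 fold change, F5446 minus control (y axis), for all 14884 named genes (grey) and the 63 interferon and sensing genes (coloured by call). The dashed line is the limit for dim genes at 4.43; 26 of the 63 lie to its left and stay between -0.66 and 0.30. The 8 genes with a change of at least 2-fold are labelled.

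Both measured chains of the receptor for interferon gamma rose. IFNGR1, the ligand-binding chain, had a log2 signal of 6.51 and 6.46 in the controls and 6.84 and 7.03 after F5446. IFNGR2, the signalling chain, had 6.74 and 6.64 in the controls and 7.12 and 7.25 after F5446. For both, the 2 treated arrays lay above the 2 controls. IFNGR1 rose 1.36-fold (log2 fold change 0.45 ± 0.11, SE, adjusted p = 0.010) and IFNGR2 1.40-fold (0.49 ± 0.10, SE, adjusted p = 0.0041). Leaving out F5446 replicate 2, neither passed, with adjusted p = 0.11 and 0.062, and IFNGR1 also missed without control replicate 2 (0.062). The type I and type III receptor chains were not analysed.

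The kinases and STAT factors that carry cytokine signals from receptor to nucleus rose where they changed. Of 8 measured JAK and STAT genes, 5 rose and 0 fell, with a median log2 fold change of 0.39; of all genes 18.2% rose, and 25.2% of those not dim. The 5 rises became 3 without control replicate 2 and 3 with no intensity trend in the variance. JAK2, the kinase bound to IFNGR2 and to many growth factor receptors, had a log2 signal of 5.31 and 5.14 in the controls and 6.60 and 6.65 after F5446. The arrays of a group lay close together, and the groups did not overlap. It rose 2.64-fold (log2 fold change 1.40 ± 0.13, SE, adjusted p = 2.11e-05). STAT3, the main transducer of interleukin 6 type cytokines, had 8.89 and 8.65 in the controls and 9.54 and 9.51 after F5446, a rise of 1.69-fold (adjusted p = 9.29e-05). JAK1, which serves all interferon receptors, had 9.20 on both controls and 9.52 and 9.50 after F5446. Its rise was small, 1.24-fold (adjusted p = 0.0025), but larger than the spread between arrays, and it missed the threshold with no intensity trend (adjusted p = 0.051).

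STAT5A and STAT5B encode closely similar factors of growth hormone and cytokine signalling, and their probe sets may share signal. STAT5A had a log2 signal of 4.81 and 4.63 in the controls and 5.74 and 5.32 after F5446. It rose 1.75-fold (adjusted p = 0.0049), a call lost without control replicate 2 (adjusted p = 0.053) or F5446 replicate 1 (0.069). STAT5B had 6.22 and 6.08 in the controls and 6.39 and 6.83 after F5446, so the treated arrays stood further apart than the nearer of them stood from the controls. It rose 1.38-fold (adjusted p = 0.042), and missed the threshold in 6 of 12 other settings of the fit, with the weakest value (log2 fold change 0.24, adjusted p = 0.33) without F5446 replicate 2; without control replicates 1 and 2 the adjusted p was 0.11 and 0.21. TYK2, the kinase of the type I interferon receptor, had 7.27 and 7.11 in the controls and 6.99 and 6.98 after F5446, a ratio of F5446 to control with a 95% interval of 0.741 to 1.02 (adjusted p = 0.15). JAK3 and STAT4, which are typical of lymphocytes, were dim and did not pass (adjusted p = 0.77 and 0.62).

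**Figure D3:**
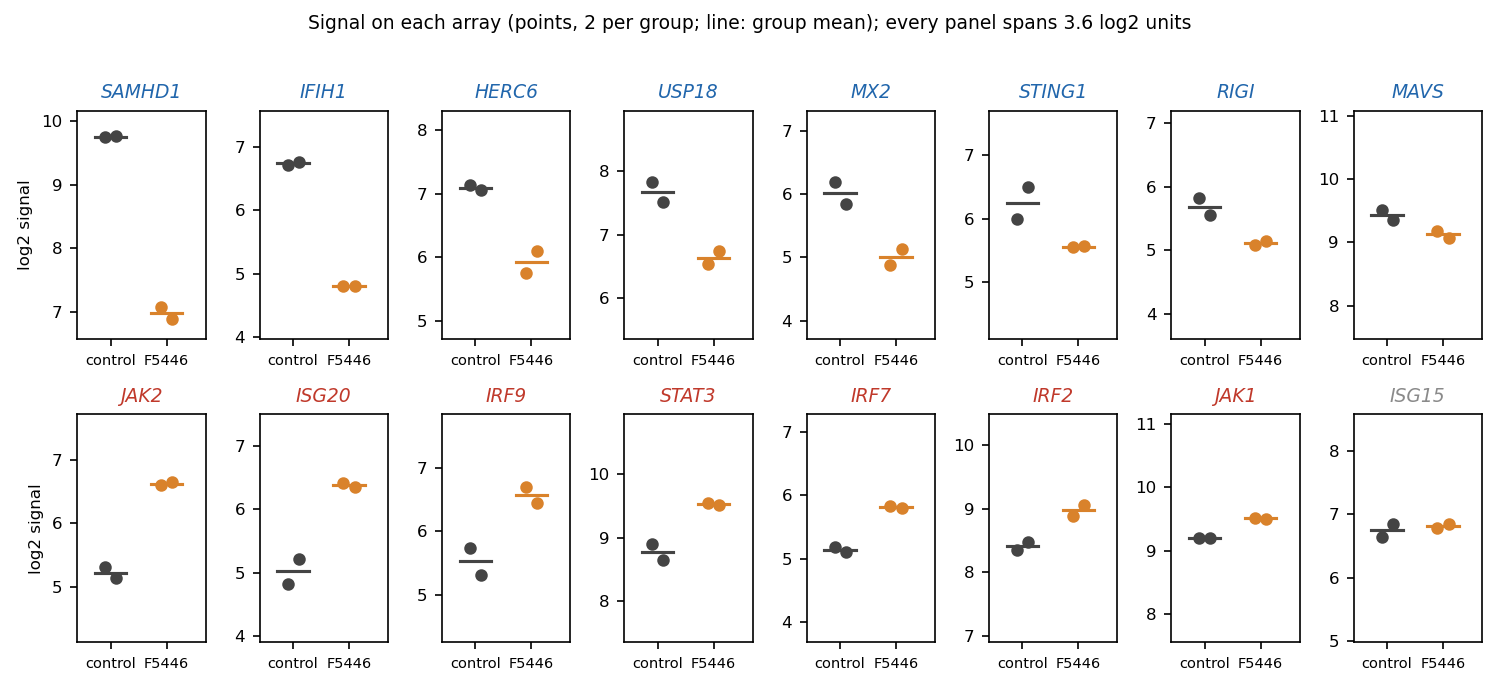
Log2 signal (y axis) of 16 genes on each array, with 2 points per group for control (dark) and F5446 (orange) and a line at the group mean; each panel spans 3.6 log2 units. Titles are blue for genes that fell, red for genes that rose and grey for ISG15, which did not pass. In 15 of the panels the groups do not overlap, and SAMHD1 and IFIH1 have the widest gaps.

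Among the 8 measured interferon regulatory factors, 3 rose, 1 fell and 4 did not pass, where 18.2% of all genes rose and 22.7% fell. All 4 calls lay among the 7 that were not dim, and 55.7% of all genes not dim were called. The share called was thus near that of genes of like signal. The rises were those of IRF9, IRF7 and IRF2, and the fall was that of IRF3, the factor that starts the response. IRF9, the DNA-binding subunit of the interferon-activated complex ISGF3, had a log2 signal of 5.74 and 5.31 in the controls and 6.69 and 6.44 after F5446. It rose 2.05-fold (log2 fold change 1.04 ± 0.17, SE, adjusted p = 0.00080). IRF7, which amplifies the production of interferon alpha, had 5.18 and 5.11 in the controls and 5.84 and 5.80 after F5446, a rise of 1.60-fold (adjusted p = 0.0027). IRF2, known as an antagonist of IRF1 at shared sites, had 8.35 and 8.47 in the controls and 8.89 and 9.07 after F5446, a rise of 1.48-fold (adjusted p = 0.00058). The groups did not overlap for any of these 3 genes, and each kept its call in 12 other settings of the fit (arrays rescaled, other filters, probe set choices and variance models, a replicate block, and each array left out).

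IRF3 had a log2 signal of 8.03 and 7.91 in the controls and 7.37 and 7.67 after F5446, lower on both treated arrays but by unequal amounts. It fell 1.37-fold (adjusted p = 0.0097), a call lost without control replicate 1 (adjusted p = 0.094), without F5446 replicate 1 (0.10), with no intensity trend (0.052) and with all probe sets tested (0.061). IRF1, the factor induced by interferon gamma, had 6.35 and 5.92 in the controls and 6.78 and 6.39 after F5446, so that the lower treated array barely cleared the higher control. Its fold of 1.37 did not pass (adjusted p = 0.074), but did in 5 of 12 other settings, among them both rescalings (adjusted p = 0.027 with each array centred and 0.018 after quantile normalization) and the fit without control replicate 1 (0.044). IRF4, IRF5 and IRF8, which are factors of blood cell lineages, did not pass, with folds of 1.02 to 1.13 in either direction.

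The sharpest falls of all 63 genes lay in the group of cytosolic sensing genes, in which SAMHD1, not itself a sensor, was placed. Of 9 measured, 5 fell, 0 rose and 4 did not pass, where 22.7% of all genes fell. All 5 falls lay among the 6 that were not dim, and 30.6% of all genes not dim fell. The 5 falls became 3 without control replicate 1 or F5446 replicate 1 and 2 without F5446 replicate 2. SAMHD1, a hydrolase of deoxynucleotides that restricts retroviruses and whose loss causes an inherited interferon disease, had a log2 signal of 9.75 and 9.77 in the controls and 7.08 and 6.89 after F5446. It fell 6.84-fold (log2 fold change -2.77 ± 0.085, SE, adjusted p = 4.37e-08). IFIH1, which encodes MDA5, the sensor of long double-stranded RNA, had 6.71 and 6.76 in the controls and 4.80 and 4.81 after F5446. The treated arrays agreed closely and stood just above the limit for dim genes, and the gene fell 3.82-fold (log2 fold change -1.93 ± 0.12, SE, adjusted p = 2.45e-06). Both calls held in the 12 other settings.

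The other parts of the RNA and DNA routes moved less. RIGI, which encodes RIG-I, the sensor of short RNA with 5′ triphosphates, had a log2 signal of 5.82 and 5.55 in the controls and 5.08 and 5.15 after F5446. It fell 1.48-fold (adjusted p = 0.013). STING1, the adaptor that binds the cGAS product cGAMP, had 6.0 and 6.49 in the controls and 5.55 and 5.57 after F5446. It fell 1.61-fold (adjusted p = 0.0094), and the controls stood apart by more than the treated arrays did. MAVS, the mitochondrial adaptor shared by RIG-I and MDA5, had 9.51 and 9.36 in the controls and 9.19 and 9.07 after F5446, a small fall of 1.23-fold (adjusted p = 0.011).

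These 3 calls rest on few arrays. For RIGI the adjusted p was 0.095 without control replicate 1, 0.098 without F5446 replicate 1 and 0.069 without F5446 replicate 2. For STING1 it was 0.068 without control replicate 2, where the log2 fold change shrank from -0.69 to -0.44; it was 0.088 and 0.083 without F5446 replicates 1 and 2, and 0.054 with all probe sets tested. For MAVS it was 0.092 without control replicate 1, 0.12 without F5446 replicate 2, 0.11 with each array centred on its median, 0.089 with no intensity trend and 0.065 with all probe sets tested. In each case the direction stayed.

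TBK1, the kinase on which these routes meet, had a log2 signal of 7.47 and 7.49 in the controls and 7.65 and 7.72 after F5446, higher on both treated arrays. The ratio of F5446 to control was 1.15, with a 95% interval of 1.01 to 1.32, and did not pass (adjusted p = 0.091). It passed as higher with each array centred on its median (0.012) and after quantile normalization (0.026). CGAS, which encodes the DNA sensor cGAS, was dim, with 3.30 and 2.64 in the controls and 2.98 and 3.01 after F5446. DHX58, which encodes LGP2, a regulator of MDA5 and RIG-I, was dim too, with 3.77 and 4.29 in the controls and 4.29 and 4.21 after F5446. The groups overlapped for both genes, and for ZBP1, a sensor of Z-form nucleic acid (adjusted p = 0.95, 0.47 and 0.47).

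Toll-like receptors were mostly near background. Of 10 measured, 8 were dim, 1 fell and 0 rose, where 8.12% of all dim genes were called in either direction. TLR3, the endosomal receptor for double-stranded RNA, had a log2 signal of 3.58 and 3.04 in the controls and 2.65 and 2.72 after F5446, below the limit for dim genes on every array. It fell 1.54-fold (adjusted p = 0.038), and missed the threshold in 7 of 11 other settings, with adjusted p = 0.20 without control replicate 1, 0.19 and 0.15 without F5446 replicates 1 and 2, and 0.087 with each array centred. The 2 receptors above the limit were TLR4, which recognises bacterial lipopolysaccharide, and TLR9, which recognises unmethylated DNA. TLR4 had 4.95 and 4.67 in the controls and 4.63 and 4.28 after F5446 (adjusted p = 0.17), and TLR9 had 5.21 and 5.32 in the controls and 5.51 and 5.45 after F5446 (adjusted p = 0.26). In the 9 receptors that did not pass, log2 fold changes ran from -0.39 to 0.30. With no intensity trend, TLR2 (adjusted p = 0.048) and TLR7 (0.049) passed as lower and TLR3 (0.054) did not, so that 2 receptors fell in place of 1.

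Among the 26 measured interferon-induced effectors, 7 fell, 1 rose and 18 did not pass, where 22.7% of all genes fell and 18.2% rose. The share that fell was near that of all genes, and 12 of the 26 were dim. The median log2 fold change was -0.17 (-0.05 over all genes). HERC6, a HECT-type ubiquitin ligase related to the ISG15 ligase HERC5, had a log2 signal of 7.14 and 7.06 in the controls and 5.76 and 6.09 after F5446. It fell 2.26-fold (log2 fold change -1.17 ± 0.13, SE, adjusted p = 9.17e-05). USP18, the protease that removes ISG15 from proteins and also restrains signalling at the type I receptor, had 7.83 and 7.52 in the controls and 6.54 and 6.75 after F5446. It fell 2.05-fold (log2 fold change -1.03 ± 0.13, SE, adjusted p = 0.00016). MX2, a dynamin-like GTPase that blocks nuclear import of HIV and herpesvirus genomes, had 6.19 and 5.85 in the controls and 4.88 and 5.14 after F5446, a fall of 2.01-fold (adjusted p = 0.00094). The groups were apart for these 3 genes by more than the spread within them, and the calls held in the 12 other settings.

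ISG20, which encodes an exonuclease of single-stranded RNA, went the other way. It had a log2 signal of 4.82 and 5.22 in the controls and 6.42 and 6.35 after F5446, and rose 2.57-fold (log2 fold change 1.36 ± 0.16, SE, adjusted p = 0.00010). ISG15, the ubiquitin-like modifier that is among the genes most readily induced by type I interferon, had 6.64 and 6.85 in the controls and 6.78 and 6.84 after F5446. The groups overlapped, and the ratio of F5446 to control was 1.05, with a 95% interval of 0.881 to 1.25 (adjusted p = 0.69). ISG15 lay above the limit for dim genes on all 4 arrays.

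Members of the IFITM and IFIT families, membrane proteins that hinder virus entry and proteins that bind viral RNA, differed among themselves. IFITM2 had a log2 signal of 11.32 and 11.22 in the controls and 10.75 and 10.66 after F5446, and fell 1.48-fold (adjusted p = 4.43e-05). IFITM3 had 7.14 and 6.97 in the controls and 6.74 and 6.67 after F5446, a fall of 1.27-fold (adjusted p = 0.028). That call was lost in 7 of 12 other settings, including centring (0.15), quantile normalization (0.13) and the fits without control replicate 1 (0.15), F5446 replicate 1 (0.10) or F5446 replicate 2 (0.16). IFITM1 had 4.36 and 4.43 in the controls and 4.52 and 4.68 after F5446 and did not pass (adjusted p = 0.37). These 3 genes are close in sequence, and their probe sets may share signal. Neither IFITM5 nor IFITM10, which interferon is not known to induce strongly, passed (adjusted p = 0.91 and 0.58).

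IFIT5 had a log2 signal of 7.25 and 7.32 in the controls and 6.80 and 6.71 after F5446, and fell 1.45-fold (adjusted p = 0.0019). IFIT1, IFIT1B and IFIT2 were dim and IFIT3 stood just above the limit; none of these passed. IFIT2 had 4.03 and 3.78 in the controls and 2.86 and 3.83 after F5446, so only F5446 replicate 1 was low. Its adjusted p was 0.17, and without F5446 replicate 2 it was 0.017. BST2, which encodes tetherin, a protein that holds budding viruses at the cell surface, was dim, with 3.98 and 4.15 in the controls and 3.26 and 3.54 after F5446. It fell 1.58-fold (adjusted p = 0.015), a call lost without control replicate 2 (0.089), without F5446 replicate 1 (0.12) and with all probe sets tested (0.056).

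Of the 18 effectors that did not pass, 11 were dim, and their log2 fold changes ran from -0.56 to 0.35. XAF1, a pro-apoptotic gene induced by interferon, came nearest, with 4.78 and 4.85 in the controls and 4.36 and 4.43 after F5446 (adjusted p = 0.054), and passed with dim genes left out (0.038) and with no intensity trend (0.023). OASL, a relative of the oligoadenylate synthetases, had 5.14 and 4.92 in the controls and 5.23 and 5.53 after F5446 (adjusted p = 0.13, or 0.041 with each array centred). The guanylate-binding proteins GBP3, GBP4 and GBP5 were dim, and their adjusted p ran from 0.22 to 0.58.

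Genes of the same pathways outside the symbol rule moved in both directions too. Of 77 measured, 27 rose and 14 fell, 53.2% in all, where 18.2% of all genes rose and 22.7% fell. The calls all lay among the 65 that were not dim. Of all genes above that limit 55.7% were called, 25.2% higher and 30.6% lower. Without F5446 replicate 1 or 2, 8 fell. Among 22 adaptors and regulators of the sensors, 20 of them not dim, 9 rose and 4 fell. Over all genes not dim, 25.2% rose and 30.6% fell. The 4 falls became 2 with each array centred and 2 with all probe sets tested. OPTN, which encodes optineurin, a partner of TBK1 also known in selective autophagy, had a log2 signal of 6.80 and 6.69 in the controls and 8.86 and 8.99 after F5446. It rose 4.53-fold (adjusted p = 2.06e-07). TRIM25, the ubiquitin ligase that activates RIG-I, had 9.47 and 9.57 in the controls and 10.77 and 10.68 after F5446, a rise of 2.30-fold (adjusted p = 7.37e-07). TICAM1, which encodes TRIF, the adaptor of TLR3, rose 2.22-fold (adjusted p = 1.56e-05), and TANK, a scaffold of TBK1, rose 1.78-fold (adjusted p = 0.00054). The 4 falls in this list ran from 1.25-fold to 1.62-fold.

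**Figure D4:**
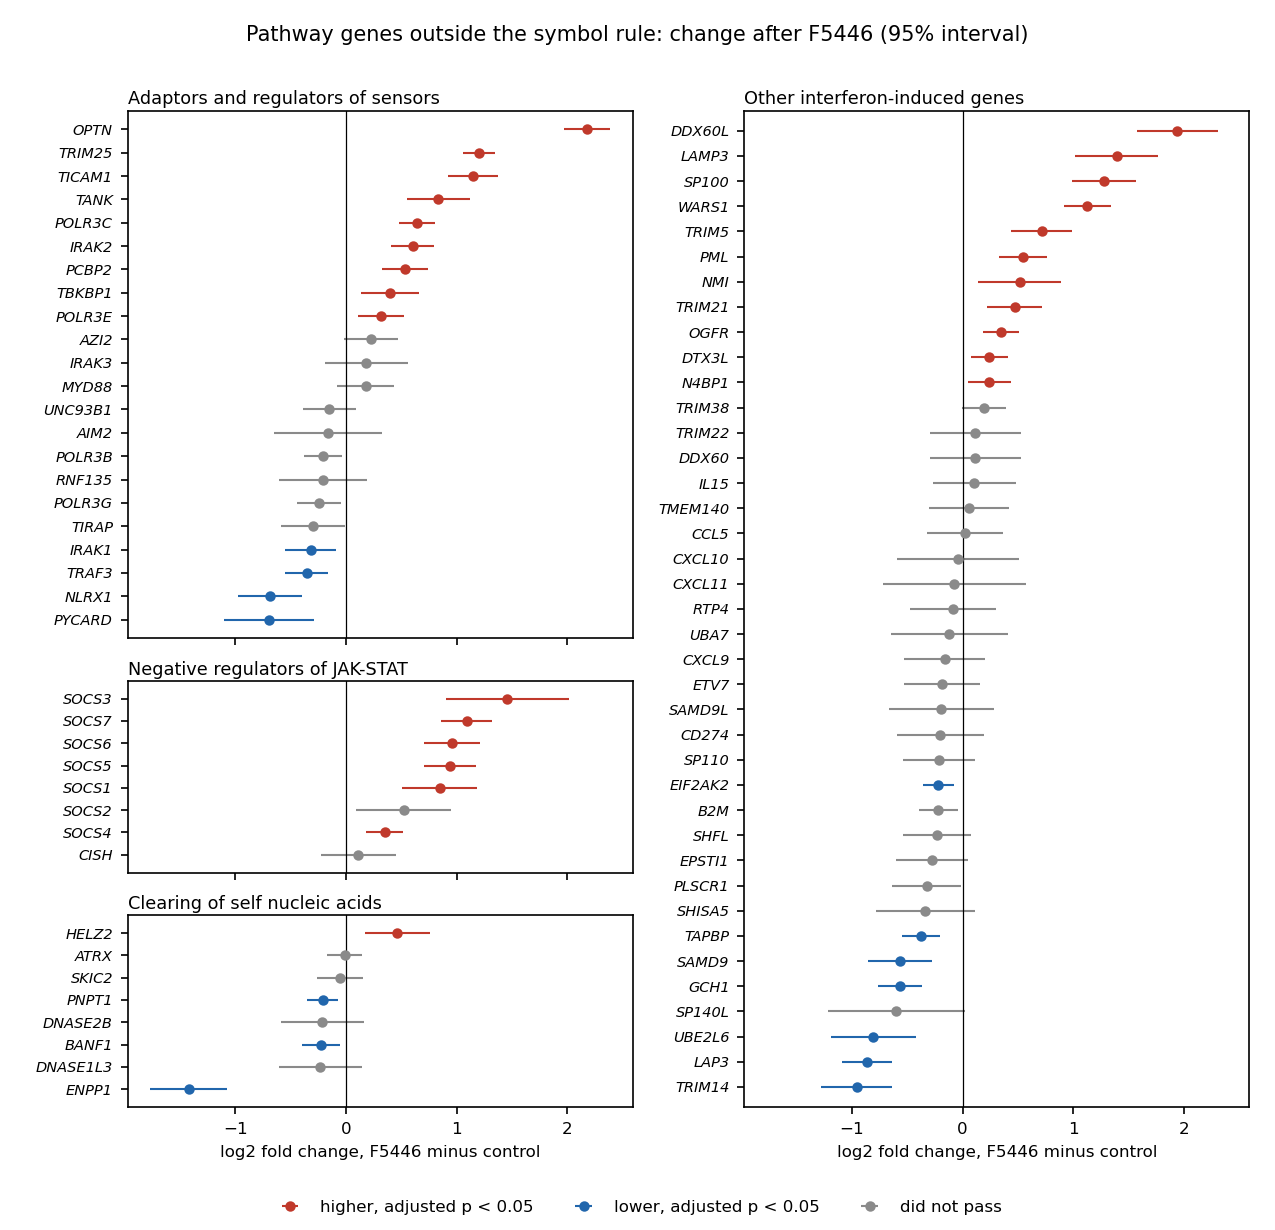
Change after F5446 of 77 pathway genes outside the symbol rule, by list. The x axis is the log2 fold change (F5446 minus control, 2 arrays each), with 95% intervals from limma; red and blue mark genes higher or lower at an adjusted p under 0.05. All 7 SOCS genes lie to the right of 0, of which SOCS2 did not pass, and OPTN is farthest right at 2.18.

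Of the genes listed as negative regulators of JAK and STAT signalling, 7 SOCS genes and CISH were measured. They rose in 6 of 8 cases and fell in 0, where 18.2% of all genes and 25.2% of those not dim rose. SOCS2 and CISH did not pass (adjusted p = 0.057 and 0.63). SOCS3, the inhibitor induced by STAT3, had a log2 signal of 5.40 and 6.32 in the controls and 7.39 and 7.25 after F5446. The controls stood apart, and the treated arrays lay above both. It rose 2.75-fold (log2 fold change 1.46 ± 0.25, SE, adjusted p = 0.0011), and its dimmer probe set changed by 1.30. SOCS7 rose 2.13-fold, SOCS6 1.94-fold and SOCS5 1.92-fold (adjusted p = 2.41e-05, 0.00011 and 6.50e-05).

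Of 8 genes for the clearing or handling of a cell's own nucleic acids, 3 fell and 1 rose. That is 50% called, near the 40.9% of all genes and the 55.7% of those not dim. The falls became 1 with each array centred, with no intensity trend and with all probe sets tested, and were fewer when any array was left out. ENPP1, the ectoenzyme that hydrolyses cGAMP, had a log2 signal of 6.12 and 6.08 in the controls and 4.53 and 4.83 after F5446, and fell 2.68-fold (adjusted p = 5.88e-05). HELZ2, a helicase-like nuclease gene, rose 1.38-fold (adjusted p = 0.018), and missed the threshold when any array was left out (adjusted p = 0.068 and 0.065 without control replicates 1 and 2, 0.14 and 0.056 without F5446 replicates 1 and 2). BANF1, which shields DNA from cGAS, and PNPT1, which degrades mitochondrial RNA, fell 1.17-fold and 1.16-fold (adjusted p = 0.042 and 0.021). The call of BANF1 was lost in 8 of 12 other settings, with each array centred (0.37) and when any array was left out (adjusted p = 0.18 and 0.062 without control replicates 1 and 2, 0.21 and 0.12 without F5446 replicates 1 and 2) among them. That of PNPT1 was lost in 6, among them centring (0.32) and the fits lacking control replicate 2 (0.13), F5446 replicate 1 (0.16) or F5446 replicate 2 (0.074).

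Among 39 other genes known to be induced by interferon, 11 rose and 7 fell, with a median log2 fold change of -0.09. Of all genes, 18.2% rose and 22.7% fell (25.2% and 30.6% of those not dim). All 18 calls lay among the 31 that were not dim. Rises thus outnumbered falls in this list, while falls outnumbered rises over all genes. With each array centred, 12 of the list rose and 6 fell, and rises outnumbered falls over all genes too. The 11 rises became 6 without F5446 replicate 1 and 7 without F5446 replicate 2. DDX60L, a helicase gene, had a log2 signal of 3.92 and 3.66 in the controls and 5.70 and 5.76 after F5446, and rose 3.84-fold (adjusted p = 1.18e-05). LAMP3, a lysosomal membrane protein gene that the unfolded protein response also induces, had 4.02 and 4.32 in the controls and 5.49 and 5.63 after F5446, a rise of 2.62-fold. SP100, a component of nuclear bodies, rose 2.42-fold, and WARS1, the tryptophanyl-tRNA synthetase, 2.18-fold; a dimmer probe set of WARS1 changed by 0.44. The adjusted p was 0.00012 for LAMP3 and lower for the other 3 genes. The 7 falls ran from 1.16-fold to 1.94-fold. The chemokine genes CXCL9, CXCL10 and CXCL11, named here after their values were seen, were dim and did not pass (adjusted p = 0.50 to 0.92).

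The balance of rises and falls depends on how the arrays are scaled. Over all probe sets the array medians were 4.40 and 4.41 in the controls and 4.43 and 4.44 after F5446, and centring on these was not run. Over named genes they were lower after F5446, at 5.50 and 5.52 against 5.64 on both controls. Centring each array on its own median over named genes raised the median log2 fold change of all genes by 0.13. Then 14 of the 63 genes rose and 11 fell, and over all genes 3420 rose and 2735 fell instead of 2714 and 3372. Of the 25 calls, 13 were kept in every setting run: JAK2, STAT3, IRF2, IRF7, IRF9 and ISG20 as higher, and SAMHD1, IFIH1, HERC6, USP18, MX2, IFIT5 and IFITM2 as lower. The other 12 were lost in at least 1 setting, and none of the 25 changed direction.

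**Figure D5:**
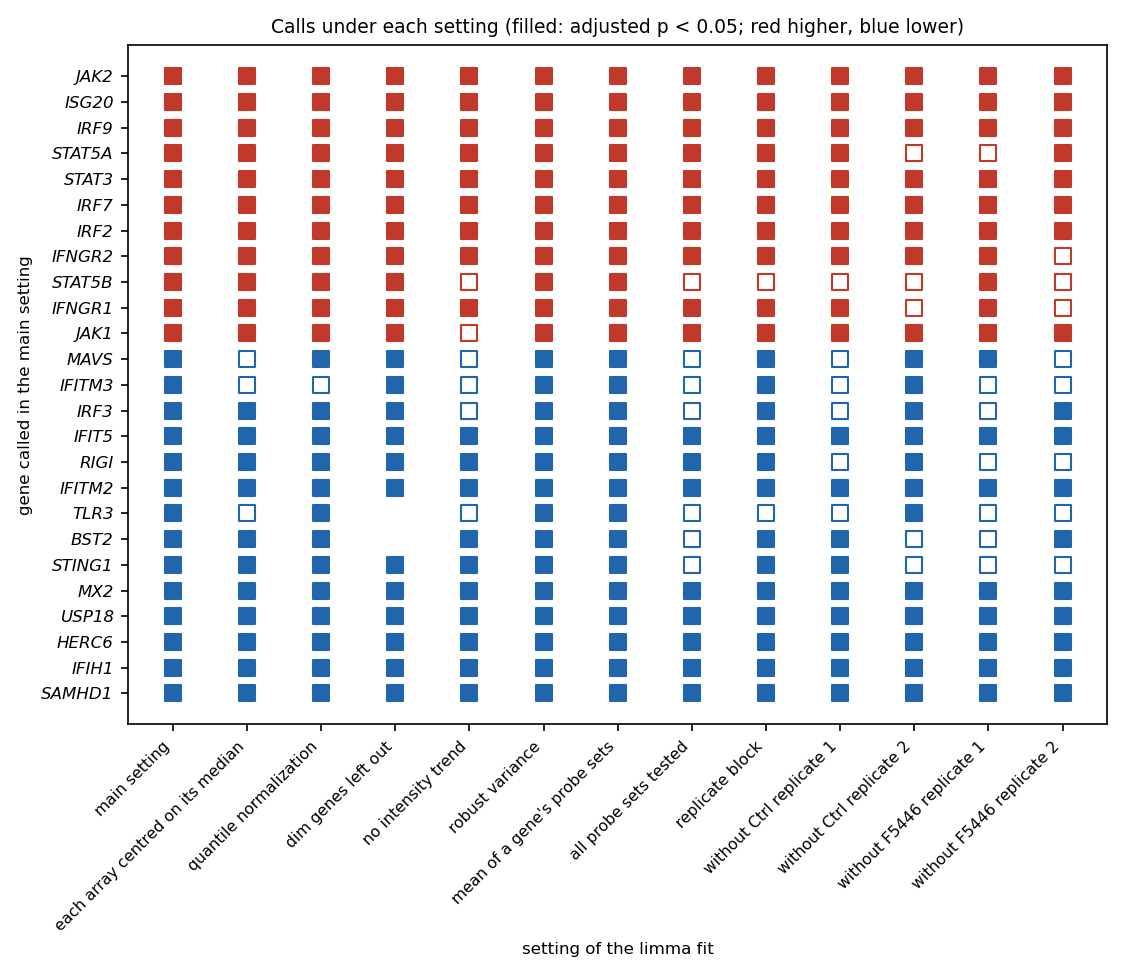
Calls of the 25 genes that passed (y axis) under each setting of the limma fit (x axis). Filled squares passed at an adjusted p under 0.05, open squares did not, red is higher and blue lower; TLR3 and BST2 have no square where dim genes were left out. The 13 genes with filled squares throughout include SAMHD1, IFIH1, JAK2 and IRF9.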

How the data were processed

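The authors deposited a value for each of 53617 probe sets on each of 4 arrays, taken here as log2 signal: the scale is not stated, and the maximum of 13.8 lies above 11.09, the natural log of a 16-bit range, and below 16, its log2. Partek is named, per the submitters' processing notes, without its steps; the labels do not say how background and scale were treated. The organism field says mouse, but SW620, named in the growth protocol, is human and so are the genes of the platform table; the arrays were read as human. That table names 16098 probe sets with 1 symbol each; the other 37519 are unnamed here. For a gene with several, the probe set with the highest mean was used.

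The deposited log2 values were tested with limma 3.58.1 under R 4.3.3, using lmFit on the group alone and eBayes with the variance following the mean signal (the intensity trend), and Benjamini-Hochberg adjustment over 14884 genes and a threshold of 0.05. The fit was also run on simulated arrays with 14884 genes. It recovered 57% of changes of 1 and 88% of changes of 2 on the log2 scale, with 2 false calls among 147. In the data 6086 genes were called, far more than these 147. How well the fit recovers changes, and how often it calls falsely, at that larger number was not tested. Precision is limited by the number of arrays, 2 per group. The labels do not say that equal replicate numbers pair arrays, and the fit did not pair them. The deviations of arrays with equal replicate numbers from their group means correlated at 0.044 across genes, which do not replicate one another. That value cannot show whether the arrays were paired. The 63 genes, the role and pathway lists and the settings were chosen with earlier results of these data known. Every one of the 63 could be named; of other genes, SUV39H1, SUV39H2, marker genes and the 4 largest changes past the threshold in each pathway list were to be named. SOCS2, CISH, CXCL9, CXCL10, CXCL11, UBE2L6, UBA7, TRIM14 and LAP3 were added after their values were seen. Promoter motifs, which the design had planned to describe, were not analysed here, and no sequences are printed.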

Additional observations from a re-analysis of the deposited data

How the results depend on the processing

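The limma fit was repeated with each array centred on its median, after quantile normalization, with dim genes left out, without the intensity trend, with robust variances, with probe sets averaged per gene, with all probe sets tested, with the replicate number as a block and without each array in turn. Among the 63 genes the count of rises ran from 8 to 14 around 11. The count of falls, 14, became 8 with all probe sets tested and 8 to 12 when an array was left out (9 without control replicate 1, 8 without F5446 replicate 1). The 14 falls among other pathway genes became 9 with each array centred, 9 with all probe sets tested and 8 to 12 with an array left out (8 without either F5446 replicate). The rises among these, and both counts over all genes, stayed within 1.5 times. With the replicate block, 11 of the 63 rose and 13 fell; TLR3 (adjusted p = 0.058) and STAT5B (0.070) were lost and IRF1 (0.016) passed.

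None of the 25 called genes changed sign in these settings. Among the 38 that did not pass, 19 changed sign somewhere. With each array centred the log2 fold change was 0.073 for IFI44, 0.033 for IFIT1, 0.090 for IFITM5 and 0.010 for IRF8, and after quantile normalization 0.024 for IFITM5. With an array left out it ran from -0.30 to 0.36 for CGAS, -0.040 to 0.47 for DHX58, -0.55 to 0.14 for GBP3, -0.018 to 0.40 for HERC5 and -0.43 to 0.040 for IFI35. It ran from -0.48 to 0.29 for IFIT1, -0.039 to 0.30 for IFITM10, -0.16 to 0.091 for IFITM5, -0.14 to 0.20 for IRF4, -0.032 to 0.17 for ISG15 and -0.22 to 0.44 for JAK3. For RSAD2 it was -0.32 to 0.019, for STAT4 -0.097 to 0.42, for TLR1 -0.011 to 0.016, for TLR10 -0.052 to 0.49, for TLR5 -0.34 to 0.067 and for TLR6 -0.60 to 0.13. The cause was not tested. There are no detection calls, so folds of genes near background may understate a change.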

Other observations

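The values of genes that attach ISG15 to proteins or remove it are given as a set put together after they were seen, with no test of the set. UBE2L6, the conjugating enzyme, had a log2 signal of 5.34 and 5.15 in the controls and 4.59 and 4.29 after F5446. It fell 1.75-fold (adjusted p = 0.0040), and USP18, which removes ISG15, fell too. HERC6, which also fell, is a relative of the ligase HERC5 and is not counted in the set. UBA7, the activating enzyme, had 5.09 and 4.61 in the controls and 4.45 and 5.01 after F5446 (adjusted p = 0.75). HERC5, the main ligase, was dim (adjusted p = 0.56). The set is not complete. TRIM25, a ligase named above, went the other way, with a rise of 2.30-fold (adjusted p = 7.37e-07), and ISG15 itself did not pass. Further falls among interferon-induced genes, also named after their values were seen, were TRIM14, an adaptor near MAVS, by 1.94-fold (adjusted p = 0.00049), and LAP3, an aminopeptidase, by 1.82-fold (adjusted p = 8.94e-05).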
